A study of Mus musculus with 20 samples.

Results

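The genes described here are those of the cytosolic ribosomal proteins, the proteins of the large (60S) and small (40S) ribosomal subunits that translate mRNA outside mitochondria. They were taken from the wild-type table by symbol, as every Rpl or Rps symbol followed by a digit together with Rplp0, Rplp1, Rplp2 and Rpsa, leaving out symbols with -ps, the Rps6k kinases and Rps19bp1. This gave 86 of the 13954 genes of that table, 52 named for the large and 34 for the small subunit. Of these, 84 were in the VAT table and all 86 in the spleen table. Rpl39l did not pass the filter on low values (a mean of at least 10), and the other 85 were tested between the wild-type groups.

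The libraries were made from poly-A RNA of F4/80 and CD11b positive cells, labelled macrophages, sorted from visceral adipose tissue (VAT) or spleen of male mice. Wild-type mice of 3 months gave 3 VAT and 2 spleen libraries, and wild-type mice of 24 months gave 4 VAT and 4 spleen libraries. Nlrp3-/- mice of 24 months, which lack an inflammasome sensor, gave 4 VAT and 3 spleen libraries. The labels name no further treatment, do not tie libraries to animals and do not say that replicates came from separate mice, so p-values measure only the spread between these libraries.

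Ribosomal protein mRNAs are among the most abundant of any cell, and the proteins are made in near-equal numbers because each ribosome holds 1 copy of nearly every one. Their mRNAs start with a C followed by a run of pyrimidines, the 5′ TOP element, through which mTORC1, LARP1 and nutrient supply control their translation. Most of the genes have many processed pseudogenes, and a few have a related second copy whose use differs between tissues.

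The sequences below show 2 features of these genes, the pyrimidine start that many of them have and the copies that reads can or cannot tell apart. A TOP-like start was scored as a C followed by at least 4 pyrimidines within 10 bases of an annotated start, and it was found in 39 of the 65 members that have a promoter entry in RefSeq (GRCm38.p6), which is 60%, against 34.4% of all 27025 genes with an entry and 44.9% of the 69 mitochondrial ribosomal protein genes. Each line gives 10 bases before and 20 from the annotated start, 5′ to 3′, with the pyrimidine runs in capitals. The genes shown are some of those that the comparisons below turn on, and Rpl10 and Rps25 had no such run in this window. Among genes named below but not shown, Rpl27, Rps16 and Rpl37rt had no run, and Rps9 and Rpl7a had a run. Rps19 had a run at only some of its annotated starts.
Rps27 (chr3:90213629-90213658, minus strand): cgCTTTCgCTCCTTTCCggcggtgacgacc
Rps27rt (chr9:114982720-114982749, minus strand): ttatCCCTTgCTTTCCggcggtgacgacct
Rps27l (chr9:66946076-66946105, plus strand): CCTCCCCgccgCCTCTatcccggaagttgc
Rps6 (chr4:86857348-86857377, minus strand): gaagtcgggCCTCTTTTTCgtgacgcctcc
Rps18 (chr17:33955646-33955675, minus strand): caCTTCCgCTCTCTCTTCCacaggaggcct
Rpl35 (chr2:39005112-39005141, minus strand): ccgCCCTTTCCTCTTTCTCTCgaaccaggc
Rpl13a (chr7:45128726-45128755, minus strand): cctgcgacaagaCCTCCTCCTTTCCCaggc
Rps15a (chr7:118116128-118116157, minus strand): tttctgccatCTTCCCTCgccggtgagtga
Rps26 (chr10:128626487-128626516, minus strand): gcaagccgccggatCCTCTTTCgagtcttg
Rpl39 (chrX:37085203-37085232, minus strand): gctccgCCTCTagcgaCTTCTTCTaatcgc
Rps25 (chr9:44407704-44407733, plus strand): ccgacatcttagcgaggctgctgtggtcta
Rpl10 (chrX:74270806-74270835, plus strand): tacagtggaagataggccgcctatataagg

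Motifs were sought in the 300 bases from 250 before to 50 after the start, on both strands. A gene was counted if any of its promoter entries held the motif. The ETS core CCGGAAG, the binding sequence of the GABP factor, stood in 26 of the 65 members with an entry (40%), against 9.93% of all genes and 37.7% of the mitochondrial ribosomal protein genes. The SP1 core GGGCGG stood in 60% against 38.2%. The YY1 core AAGATGGC stood in 9.23% against 3.19% and the TATA box TATAAA in 10.8% against 15.7%. These are matches of letters and not measured binding sites. In VAT the median log2 difference with age was -0.32 for the 38 tested members with a TOP-like start and -0.35 for the 26 with an entry and no such start.

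Rps27 and Rps27rt cannot be told apart by reads of their coding sequence. In GENCODE M21 (GRCm38, the mm10 build of the study) the 252 coding bases of Rps27 on chromosome 3 and of Rps27rt on chromosome 9 differ at 0 positions, and 98.6% of all 50-base stretches of the Rps27 transcript are also in Rps27rt. Rps27l, a further copy on chromosome 9, differs from Rps27 at 60 of 252 coding bases and shares 0% of its 50-base stretches with it. The first 60 coding bases are shown, with the bases of Rps27l that differ from Rps27 in capitals.
Rps27 and Rps27rt: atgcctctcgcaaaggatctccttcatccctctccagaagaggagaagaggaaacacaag
Rps27l: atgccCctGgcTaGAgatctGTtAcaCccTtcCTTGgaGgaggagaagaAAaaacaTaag

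Across the 86 members a median of 39.4% of the 50-base stretches of the transcript were found in no other annotated gene, from 1.35% in Rps27 to 100% in Rpl3l and Rpl39l, and 55 members were below 50%. How the submitters treated reads that fit several genes is not given in the sources used here, so the levels of members with pseudogene copies are uncertain. Over the 85 members with a mean of at least 10, the level per kilobase and the unique share had a Spearman rho of -0.09, a description across genes of the same libraries. The mean level over the wild-type libraries, in normalised read counts per kilobase of the annotated principal transcript, was highest in Rpl41 at 87552, Rpl32 at 67118 and Rps9 at 62298, with a median of 12856. Rps4l stood at 270.4 per kilobase, Rpl3l at 23.7 and Rpl39l at 15.6, the lowest of all members, and Rpl30 came next at 1069.

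Depth differed between libraries. In the wild-type table they held between 27.3 and 36.8 M recovered reads (M for mega). Of the VAT libraries there, 3-month replicate 3 was lowest at 27.7 M, and the others held 32.8 to 36.8 M. The VAT libraries with their null counterparts held between 27.7 and 37.5 M, and the spleen libraries likewise between 24.1 and 32.8 M. Nlrp3 stood at 2708 to 4254 normalised counts in 24-month wild-type VAT and at 6.15 to 200.4 in the null VAT libraries (VAT table), with the highest in null replicate 4. In spleen it stood at 340.7 to 663 in 24-month wild-type and 1 to 3.61 in null libraries (spleen table). The 7 macrophage markers measured, among them Adgre1 and Csf1r, summed to 240611 to 302845 in wild-type VAT and 43890 to 76635 in wild-type spleen libraries. The 8 neutrophil markers measured summed to 345 to 890 in wild-type VAT but to 146106 to 732660 in wild-type spleen. The part of neutrophil RNA in the results below was not tested. In such bulk libraries fewer cells of a type and less RNA per cell cannot be told apart.

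How much of the RNA signal was ribosomal protein mRNA? The members made up 2.98%, 3.06% and 3.57% of the summed normalised counts in the 3-month VAT libraries and 2.56%, 2.46%, 2.68% and 2.51% in the 24-month wild-type VAT libraries. Every young VAT library was above every old one, at 3.20% ± 0.32 (SD, n = 3) and 2.55% ± 0.09 (n = 4). In spleen the share was 3.90% and 4.75% at 3 months, and 4.38%, 4.71%, 4.97% and 4.54% at 24 months. The ages overlapped there, and each spleen library was above each VAT library. In the null mice the share was 2.69%, 2.82%, 2.55% and 2.68% in VAT (VAT table) and 4.43%, 4.27% and 5.53% in spleen (spleen table), overlapping the wild-type libraries of the same age and tissue. The share divides by the total, and the summed normalised counts were 34.9 to 37.3 M in VAT and 24.6 to 30.7 M in spleen.

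**Figure D1:**
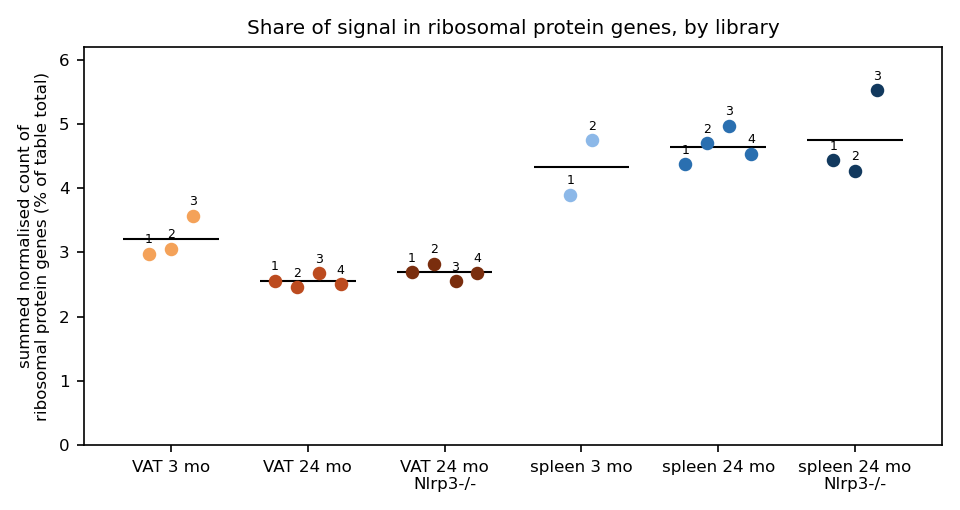
Share of the summed normalised counts of a table that lies in the ribosomal protein genes, in percent (y axis, from 0), for each group (x axis). Points are libraries labelled with their replicate number, lines are group means, and wild-type libraries are from the wild-type table and Nlrp3-/- libraries from their tissue's table. The 3-month VAT libraries (2.98% to 3.57%) lie above the 24-month VAT libraries (2.46% to 2.68%), and spleen replicate 3 of Nlrp3-/- stands highest at 5.53%.

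In some libraries most members stood on the same side of the rest of their group, and in others they were divided. In 24-month wild-type spleen replicate 1, for example, 36 of 85 members were above the mean of the other libraries. In null VAT replicate 1 (VAT table) 37 of 84 were. In 3-month VAT replicate 3, 81 of 85 members were above the mean of the other 2 libraries and 80 were above both of them, against 35.6% of all genes tested, with a median log2 difference of 0.28. In spleen of the null mice, replicate 3 had 84 of 86 members above the mean of the other libraries and 83 above both, against 34.4% of all genes, with a median of 0.34. In 24-month wild-type spleen, replicate 3 was above the other 3 libraries in 61 of 85 members (22.4% of all genes) and replicate 4 below them in 67 of 85 (25.9% of all genes). The median over all genes was between -0.01 and 0.04 in every library of the wild-type table. In 3-month VAT replicate 3 the same direction was seen in all 6 elongation factors (median 0.12) and in 57 of 77 mitochondrial ribosomal protein genes (median 0.14), as well as in 13 of 14 proteasome core genes (median 0.21). Ribosome assembly genes (18 of 41 above, median -0.03), RNA polymerase I genes (5 of 14, -0.05) and aminoacyl-tRNA synthetases (7 of 20, -0.11) did not share it.

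**Figure D2:**
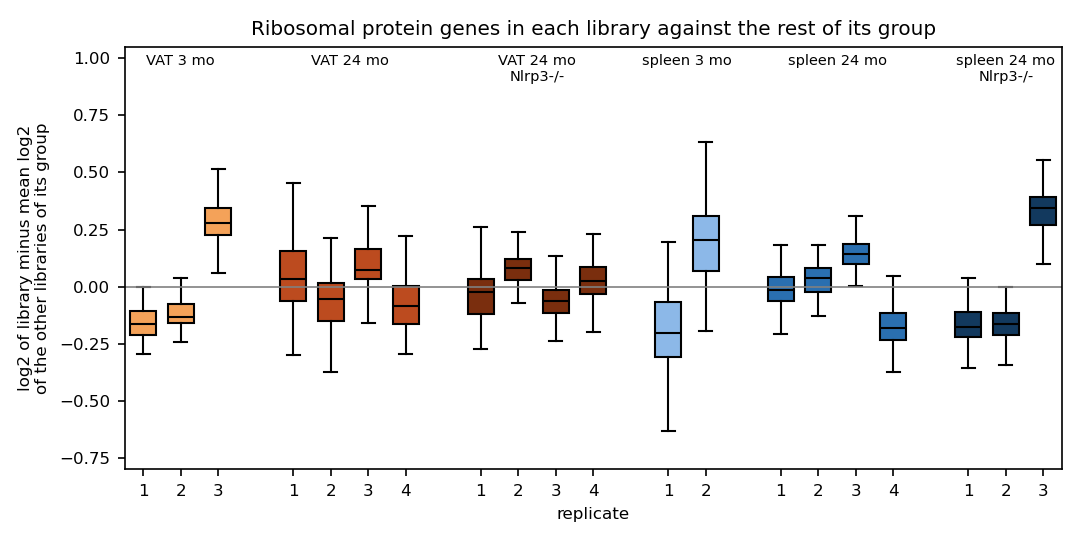
For every library (x axis, replicate numbers by group), the log2 of each ribosomal protein gene minus its mean log2 over the other libraries of the group (y axis). Boxes span the quartiles over genes with a median line, and whiskers reach the farthest gene within 1.5 box lengths. The median of 3-month VAT replicate 3 is 0.28 and that of Nlrp3-/- spleen replicate 3 is 0.34.

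Did ribosomal protein mRNAs change with age in VAT macrophages? In VAT 12 of 85 members fell from 3 to 24 months and 0 rose, and 83 of 85 had a negative log2 difference. Called genes made up 3.17% (lower) and 2.23% (higher) of all 13702 genes tested. The median of the members was -0.32 on the log2 scale of value plus 1, with quartiles of -0.40 and -0.24, and that of all genes was 0.04. The fall was spread over both subunits, with 4 of 51 large and 8 of 34 small subunit genes called. In 61 of 85 members all 4 old libraries were below all 3 young ones (10.6% of all genes). Unadjusted p was under 0.05 for 56 lower and 0 higher members, against 10.5% and 10.2% of all genes. The number of calls depends on single libraries, as it does over all genes, of which 434 were called lower with all libraries. Without 3-month replicate 3, 0 members were called (140 lower over all genes) and the median was -0.22. In that fit 24 members had an unadjusted p under 0.05 in either direction, against 1879 of all 13702 genes. There 83 of 85 differences were negative, and 61 of 85 members were lower with groups that did not overlap (13.1% of all genes). Without 3-month replicate 1 or 2 the calls were 4 and 3 (247 and 217 lower over all genes). Without 24-month replicate 1, 2 or 4 they were 21, 3 and 6, all of them falls (485, 319 and 384 lower over all genes).

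Rps25 codes for a small subunit protein that some viral internal ribosome entry sites need. It stood at 11048, 11416 and 13260 normalised counts at 3 months and at 9260, 8347, 8188 and 7718 at 24 months, and the groups did not overlap. It fell by 0.51 on the log2 scale (SE 0.11, adjusted p = 0.0151). Rps26, which contacts mRNA upstream of the start codon, stood at 6767, 6940 and 7883 and then at 5192, 4881, 5104 and 5347, again with the groups apart, and fell by 0.49 (SE 0.11, adjusted p = 0.019). Rps15a and Rps29, 2 further small subunit proteins, fell by 0.49 and 0.46 (adjusted p = 0.0429 and 0.0451).

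Among the large subunit genes Rpl39, whose short protein lines the exit tunnel of the new peptide, stood at 4556, 5127 and 6916 at 3 months and 3281, 3315, 3579 and 3748 at 24 months. The young replicate 3 was highest and the groups were apart, with a fall by 0.65 (SE 0.15, adjusted p = 0.0179). Rpl32 was at 31877, 31125 and 38326 and then at 27599, 22022, 23065 and 23065, which is a fall by 0.50 (SE 0.12, adjusted p = 0.0245). Every old library of both genes was below every young one. The other called members were Rps27rt and, named after their values were seen, Rpl27, Rps16 and Rpl37rt, from -0.46 to -0.43. Rpl37rt, counted with the large subunit by its symbol, is annotated in GENCODE M21 as a transcribed processed pseudogene, and 38.7% of its 50-base stretches are also in Rpl37.

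Rps27l, the copy that is a target of p53, had the lowest adjusted p of all members in VAT. It stood at 5121, 5065 and 6333 at 3 months and at 4204, 2848, 3033 and 3454 at 24 months, and fell by 0.71 (SE 0.15, adjusted p = 0.0114). Rps27 and Rps27rt, which share their reads, had differences of -0.41 (adjusted p = 0.0663) and -0.45 (adjusted p = 0.0452), so the threshold fell between 2 genes that reads cannot separate.

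Members with known tasks outside or at the edge of the ribosome had similar values that did not pass the test. Rps6, the substrate of S6 kinase, was at 32534 ± 3341 (n = 3) and 26165 ± 1294 (n = 4), a difference of -0.31 (adjusted p = 0.111). Rpl5 and Rpl11, which bind Mdm2 and so stabilise p53, had differences of -0.32 and -0.23 (adjusted p = 0.167 and 0.282). The stalk proteins Rplp0, Rplp1 and Rplp2, which recruit elongation factors, had -0.28, -0.20 and -0.33, and Rpsa, also known as a laminin receptor, -0.35. Rpl13a and Rps18 are widely used reference genes for PCR, and had unlike values here: Rpl13a was at -0.10 (adjusted p = 0.657) and Rps18 at -0.38 (adjusted p = 0.0566). Rpl3, Rpl7 and Rpl22l1 had the lowest SD over the 13 wild-type libraries, at 0.14, 0.13 and 0.15 on the log2 scale.

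Rps4l had the largest difference with age of all members, in both tissues. It is annotated as a transcribed processed pseudogene of the Rps4 family (chromosome 6, 148354656 to 148355598), shares 0% of its 50-base stretches with Rps4x, and 85.1% of them are found in no other gene. In VAT it stood at 519, 585 and 574 at 3 months and 168, 201, 186 and 91.2 at 24 months, and in spleen at 336 and 350 and then at 85.1, 80.6, 25.7 and 113. Young and old libraries did not overlap in either tissue, with values of -1.84 in VAT (SE 0.46, adjusted p = 0.0287) and -2.34 in spleen (SE 0.52, adjusted p = 0.0192). Rps4x, the X-linked gene of the protein itself, had differences of -0.31 and 0.03 (adjusted p = 0.143 and 0.938). Relative to Rps4x per kilobase, Rps4l went from 3.602% ± 0.432 (n = 3) to 1.28% ± 0.36 (n = 4) in VAT and from 2.50% ± 0.12 (n = 2) to 0.56% ± 0.31 (n = 4) in spleen. The VAT call was lost without any 1 of the 3-month libraries or 24-month replicate 4, and the spleen call without either 3-month library.

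The rest of the translation machinery in VAT had medians on both sides of 0, and its counts of calls are read against 3.17% (lower) and 2.23% (higher) of all genes. The 6 host genes of small nucleolar RNAs with TOP starts had a median of -0.30, and the 6 elongation factors -0.18, each with 0 called and all values negative. Of 38 initiation factors 2 fell, Eif5 by 0.56 and Eif3a by 0.49 (adjusted p = 0.0139 and 0.0208). Of 41 ribosome assembly genes 1 fell, Fbl, the rRNA methyltransferase fibrillarin, by 0.68 (adjusted p = 0.0393), which as a share of the list is not above that of all genes. The 77 mitochondrial ribosomal protein genes had a median of 0.12 with 0 called in either direction, RNA polymerase I subunits and factors a median of 0.07 with 0 of 14 called, and aminoacyl-tRNA synthetases a median of 0.08 with 0 of 20 called. Myc was the only one of 19 genes of mTORC1 and its targets that was called, with a rise of 0.99 (adjusted p = 0.00603), and Psma4 the only one of 14 proteasome core genes, with a fall by 0.49.

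Summed markers of 9 of 15 cell type lists did not overlap between the ages in VAT. The old libraries were lower for T cells (9 markers measured, 4481 to 6270 and then 2426 to 3285), monocytes (4 markers, 23760 to 29891 and then 8123 to 14735) and NK cells (6 markers, 1832 to 2132 and then 373 to 562, with Ncr1 at 1 in every old library). They were also lower for erythroid cells (8 markers, 7225 to 13461 and then 1476 to 5727), endothelial cells (4 markers, 1131 to 1334 and then 408 to 635) and dendritic cells (5 markers, 3896 to 4186 and then 1449 to 3740). They were higher for B cells (11 markers, 2700 to 3252 and then 5173 to 12457), plasma cells (6 markers, 12325 to 21511 and then 36673 to 66589) and fibroblasts (4 markers, 23330 to 25252 and then 45742 to 72201). The sums for macrophages (7 markers, 240611 to 275580 and then 252611 to 302845) and proliferation (7 markers) overlapped. Their part in the differences of the ribosomal protein genes was not tested. Short transcripts are a second shared feature. Over 83 coding members the difference in VAT and the length of the principal transcript had a Spearman rho of 0.39. This is a description across genes of the same libraries. By another measure, the median length of a gene's coding transcripts, 2213 other genes under 1000 bases had a median difference of 0.05. The 67 members under that length had -0.33.

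**Figure D3:**
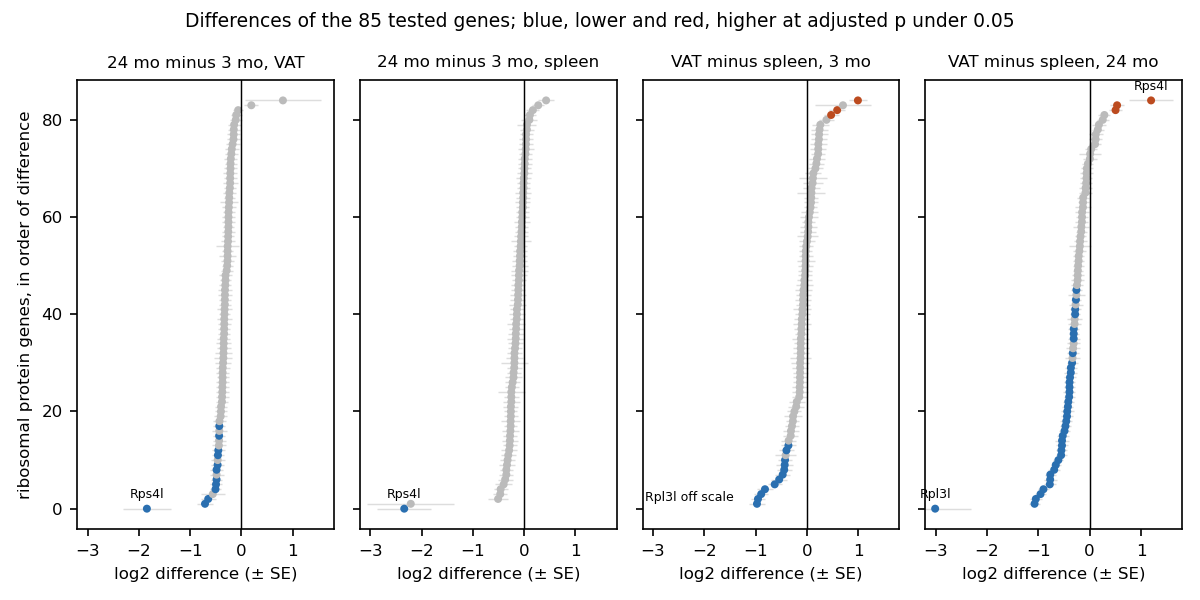
log2 difference ± SE (x axis) of each of the 85 tested ribosomal protein genes, ordered by difference (y axis), for age in each tissue and for VAT minus spleen at each age. Blue and red mark genes lower and higher at adjusted p under 0.05 and grey the rest. In VAT 83 of 85 differences with age are negative, and at 24 months 39 genes are lower in VAT than in spleen.

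Did the genes change with age in spleen macrophages? There 1 of 85 members fell, Rps4l, and 0 rose, against 3.4% and 2.8% of all genes. The median was -0.12 and 69 of 85 differences were negative. Unadjusted p was under 0.05 for 2 higher and 11 lower members, against 10.8% and 11.2% of all genes. In 27 of 85 members every old library was below both young ones (15% of all genes). The 2 young libraries differed by more than the ages did: 71 of 85 members were higher in replicate 2 than in replicate 1, and the median with age was -0.24 without replicate 1 and -0.03 without replicate 2. With quantile normalisation the median was 0.09, with 2 members higher and 1 lower, so no direction can be given for the group as a whole in spleen. Rps27 and Rps27rt had -0.46 and -0.47 (adjusted p = 0.0609 and 0.0595), and Rpl3 0.27 (adjusted p = 0.177).

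The difference between the tissues in their response to age was tested as an interaction. In limma 0 of 85 members were called, against 1.36% (higher) and 1.37% (lower) of all genes, and edgeR and DESeq2 called 0 as well. Unadjusted p was under 0.05 for 1 member with a positive and 7 with a negative interaction, against 8.49% and 8.24% of all genes, and 78 of 85 values were negative with a median of -0.18. Rps2 had the lowest adjusted p, 0.119. A difference between VAT and spleen in the effect of age was therefore not detected in these genes, while quantile normalisation called 6 lower, and 207 lower over all genes.

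How did VAT and spleen macrophages differ? At 24 months 39 of 85 members were lower and 3 higher in VAT than in spleen, against 22.5% and 26.6% of all genes tested, and the median was -0.27 with 0.02 for all genes. The lower genes were 21 of 51 of the large and 18 of 34 of the small subunit. In 42 of 85 members all VAT libraries were below all spleen libraries (19.8% of all genes), and unadjusted p was under 0.05 for 5 higher and 45 lower members (29.3% and 25.6%). At 3 months 13 were lower and 3 higher, against 18.7% and 23.2% of all genes, with a median of -0.08. There the tissues did not overlap in 9 higher and 19 lower members, against 33% and 29.4% of all genes, and unadjusted p was under 0.05 for 4 higher and 17 lower (27.4% and 22.4%). The 16 calls at 3 months (5745 over all genes) were 10 without VAT replicate 1 or 2 (4943 and 5025 over all genes). Without spleen replicate 2 the median was 0.04. The split depends on the scaling: quantile normalisation gave 66 lower and 2 higher at 24 months and 30 lower and 1 higher at 3 months. Over all genes it gave 3806 lower and 3233 higher at 24 months, and 2847 lower and 2746 higher at 3 months. It moved the median of all genes from 0.02 to -0.11 and from 0.07 to -0.04.

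The members differed widely in this comparison. Rps19 (chromosome 7, 24884371 to 24889806), the gene most often mutated in Diamond-Blackfan anaemia, stood at 23780, 16198, 18187 and 17766 in old VAT and 36447, 40140, 40671 and 38371 in old spleen. Its difference was -1.05 at 24 months (SE 0.12, adjusted p = 3.71e-06) and -0.82 at 3 months (adjusted p = 0.00067). Rpl32, Rpl35 and Rpl13a were lower at 24 months (-0.78, -0.77 and -0.77), and all 3 were also lower at 3 months (-0.43, -0.43 and -0.63). Rps15a and Rps9 were lower at 3 months, at -0.54 and -0.47 (adjusted p = 0.0115 and 0.0147). Over the alternatives they ranged from -0.67 to -0.41 and from -1.02 to -0.43. The Rps15a call was lost without spleen replicate 2. The Rps9 call was lost without that library and without VAT replicate 1 or 2.

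The reference genes and the kinase substrate were among those that differed. Rps18 was at 14780 ± 972 in old VAT and 23334 ± 913 in old spleen (n = 4 each), a difference of -0.66 (adjusted p = 6.22e-05), and Rps6 at -0.61 (adjusted p = 0.000112). At 3 months they were at -0.29 and -0.27 (adjusted p = 0.0866 and 0.1). Of the stalk genes Rplp0 was lower in old VAT at -0.31 (adjusted p = 0.017), a call lost without 24-month spleen replicate 3. Rplp1 and Rplp2 were at 0.12 and -0.15 (adjusted p = 0.442 and 0.39). Rplp1 was lower with quantile normalisation, at -0.49. Rpl5, Rpl11 and Rpsa did not pass the test at either age.

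Rpl10 and Rps27l were higher in VAT at both ages, against the direction of most members. Rpl10, an X-linked gene whose protein joins the large subunit late in its assembly, stood at 20987, 22780, 23933 and 19334 in old VAT and 15504, 16408, 16324 and 13137 in old spleen, with no overlap. It was higher by 0.50 at 24 months (SE 0.12, adjusted p = 0.00284) and 0.59 at 3 months (adjusted p = 0.00686), but quantile normalisation turned it to -0.10 at 24 months, and the call at 3 months was lost with it or without spleen replicate 1. Rps27l was at 3385 ± 602 in old VAT and 2318 ± 230 in old spleen (n = 4 each), a difference of 0.53 (adjusted p = 0.00429), and it was higher by 0.99 at 3 months (adjusted p = 0.000326). Rpl7a, a large subunit protein, was higher by 0.47 at 3 months (adjusted p = 0.0175) and at 0.26 at 24 months (adjusted p = 0.0761). Its call was lost with quantile normalisation, without VAT replicate 3 and without spleen replicate 1. Rps4l was the remaining higher gene at 24 months, at 162 ± 48.9 in VAT and 76.1 ± 36.5 in spleen (n = 4 each). The groups overlapped, the difference was 1.20 (SE 0.43, adjusted p = 0.0296), and the call was lost without VAT replicate 1, 2 or 3 or spleen replicate 3.

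Rps27 and Rps27l, the copies whose coding bases are shown above, differed between the tissues in opposite directions. Rps27 stood at 4162, 3476, 4014 and 3354 in old VAT and 6375, 6797, 7638 and 7144 in old spleen, which is -0.90 (SE 0.11, adjusted p = 8.19e-06), and -0.95 at 3 months (adjusted p = 8.82e-05). Rps27rt was at -0.96 and -0.97, and its ratio to Rps27 per kilobase was between 97.9% and 104.9% in every wild-type library. The level of Rps27l per kilobase was 37.8% ± 0.6 (n = 3) of that of Rps27 and Rps27rt together in young VAT, 31.4% ± 4.6 (n = 4) in old VAT, 9.75% ± 0.74 (n = 2) in young spleen and 11.4% ± 1.6 (n = 4) in old spleen. In the null mice it was 28.4% ± 3.5 (n = 4) in VAT and 11.01% ± 1.26 (n = 3) in spleen. Each VAT library was above each spleen library, and a ratio within a library does not depend on the scaling between libraries.

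Ratios of 3 other related pairs are given per kilobase at equal age, with n = 3 and 2 in young and 4 and 4 in old VAT and spleen. Rpl22l1 was at 34.5% ± 0.8 of Rpl22 in young VAT and 31.5% ± 5.8 in young spleen, and at 36.1% ± 1.7 and 36.7% ± 1.7 in old VAT and spleen. The tissues overlapped at both ages. Rpl7l1 was at 9.77% ± 1.27 of Rpl7 in young VAT and 11.9% ± 2.0 in young spleen, and at 12.4% ± 1.6 and 13.3% ± 2.7 in the old, again with overlap. Rpl36al was at 276.5% ± 8.9 of Rpl36a in young VAT and 218.4% ± 2.0 in young spleen, and at 272.6% ± 18.3 and 237.2% ± 14.7 in the old. Every young VAT library was above both young spleen libraries for this pair, and in the old libraries the ranges met, at 255.8% to 297.6% and 224.8% to 258.2%. For Rpl22l1 and Rpl7l1 the difference with age or tissue did not pass the test.

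Rpl3l, the copy of Rpl3 known from striated muscle, was found in spleen only at low levels and was near 0 in VAT. It stood at 170 and 111 normalised counts in young spleen and 24.7, 51.5, 33.5 and 16.1 in old spleen, against 1.07, 1 and 1.28 in young VAT and 7.96, 1.021, 4.21 and 1 in old VAT, where 1 is listed for 0 reads and 3 reads are worth 2.33 to 3.85. It was lower in VAT at -6.03 at 3 months (SE 0.89, adjusted p = 6.66e-05) and -3.01 at 24 months (SE 0.69, adjusted p = 0.00205), sizes that depend on the pseudocount and ranged from -7.55 to -3.73 and from -3.44 to -1.57 over the alternatives. Its difference with age in spleen was -2.21 (adjusted p = 0.138). The sum of 8 neutrophil markers fell in the same libraries from 566080 and 732660 to 146106 to 316534, and that of 8 erythroid markers from 81881 and 83442 to 20063 to 44906, and their part in the level of Rpl3l was not tested. Rpl39l, known from male germ cells, stood at 6.45 to 9.63 in young VAT, 1 to 5.10 in old VAT, 20.3 and 26.4 in young spleen and 1 to 18.7 in old spleen, and was not tested.

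**Figure D4:**
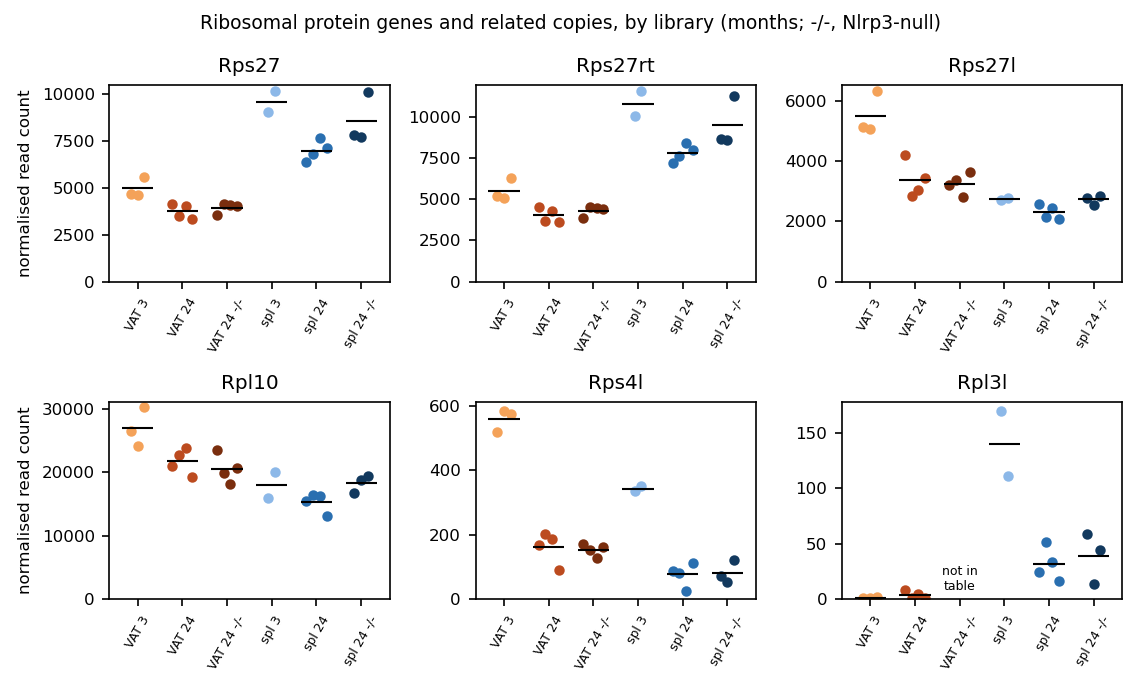
Normalised read counts (y axes, from 0) of Rps27, Rps27rt, Rps27l, Rpl10, Rps4l and Rpl3l in every library (points) by group (x axes), with group means as lines. Nlrp3-/- libraries are from tables normalised separately, and the VAT table does not hold Rpl3l. Rps27 and Rps27rt are higher in spleen and Rps27l and Rpl10 in VAT, and Rps4l is at most 201 in every 24-month library and at least 336 in the 3-month libraries.

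The counts of other translation genes are read against the 26.6% of all genes higher and 22.5% lower at 24 months. Of 38 initiation factors 8 were higher and 4 lower at 24 months, with Eif1a at 2.23 and Eif4a1, the helicase that unwinds mRNA ahead of the ribosome, at 1.78 (adjusted p = 9.4e-09 and 2.66e-09). Of 77 mitochondrial ribosomal protein genes 9 were higher and 18 lower, with a median of -0.10, and as shares of these 2 lists the counts are near or below those of all genes. Of 6 elongation factors 3 were lower, Eef1g at -0.55, Eef1b2 at -0.54 and Eef2 at -0.37. Of 41 ribosome assembly genes 6 were higher and 11 lower, with Gnl3 at 1.55 and Dkc1 at -1.37, and of 14 RNA polymerase I genes 7 were lower and 1 higher. The tissues differed in markers of many cell types: B cell markers (11) summed to 2700 to 12457 in wild-type VAT and 93073 to 173296 in spleen, and fibroblast markers (4) to 23330 to 72201 and 6.89 to 194. The part of these cells in the tissue differences was not tested.

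**Figure D5:**
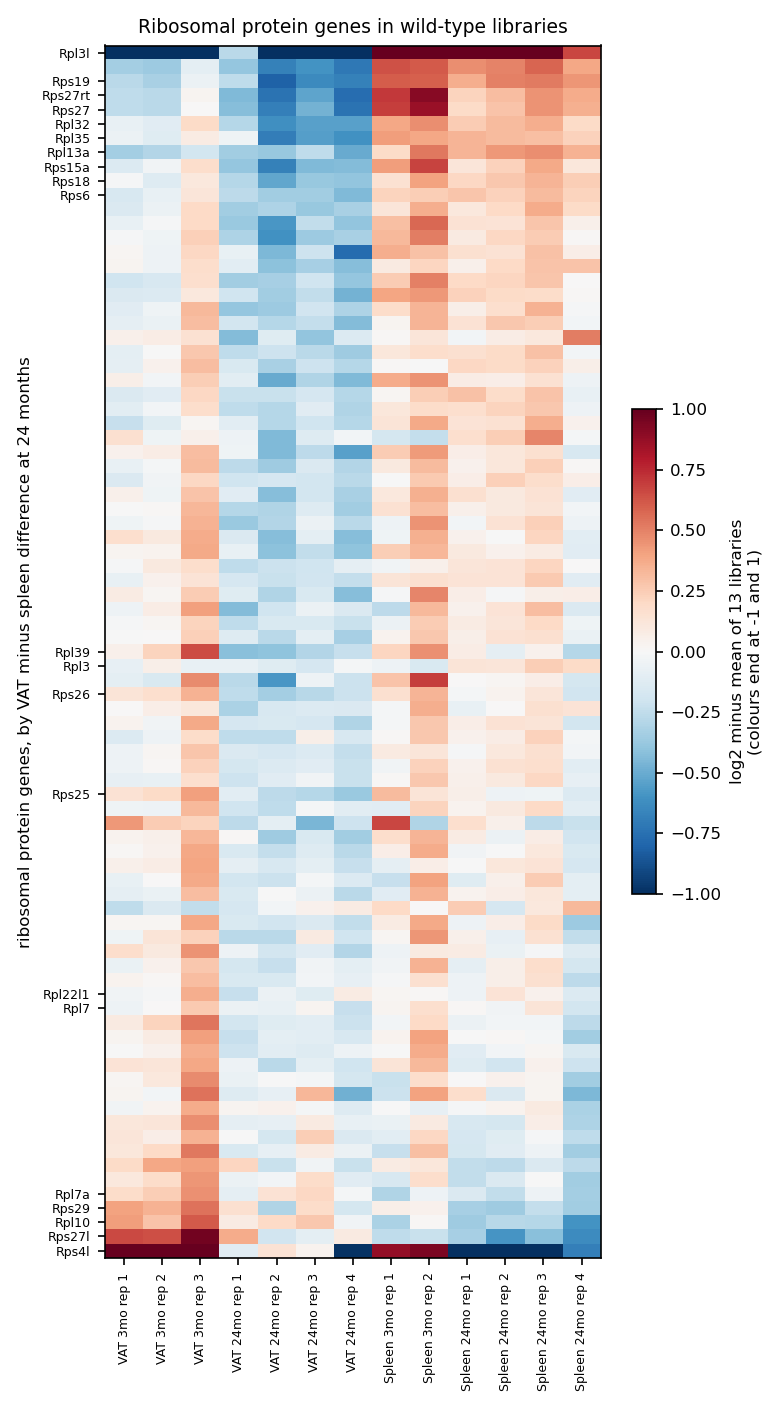
log2 of each of the 85 tested ribosomal protein genes (rows, ordered by VAT minus spleen at 24 months) in the 13 wild-type libraries (columns), minus the gene's mean over them, with colours ending at -1 and 1. Only some of the genes named in the text are labelled. Rpl3l, Rps19 and the Rps27 pair stand near the top as higher in spleen, Rps27l and Rps4l stand at the bottom, and 3-month VAT replicate 3 is redder than its group in nearly every row.

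Did loss of Nlrp3 change the genes at 24 months? In limma 0 of 84 members were called in VAT, where 0% of 13090 genes were called higher and 0.00764% (1 gene) lower, and 0 had an unadjusted p under 0.05, against 3.47% of all genes higher and 2.62% lower. The median was 0.01, with members from -0.17 to 0.27. In spleen 0 of 86 were called, with 0% higher and 0.00766% lower over all 13053 genes, and 2 had an unadjusted p under 0.05, both higher, against 3.14% of all genes higher and 3.05% lower. edgeR and DESeq2 also called 0 members in either tissue.

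In VAT the null and wild-type libraries did not overlap in 2 members, against 1.73% of all genes higher and 1.75% lower. Rpl30 was at 562 ± 22.7 in null and 466.8 ± 47.3 in wild type (n = 4 each, difference 0.27, adjusted p = 0.842), and Rps13 at 4276 ± 217 and 4659 ± 111 (difference -0.12, adjusted p = 0.889). In spleen Rpl37, Rps28 and Rps29 were higher in each null library, at 0.37, 0.32 and 0.19 (adjusted p = 0.782, 0.782 and 0.845), against 3.8% of all genes. These 5 genes were chosen after their values were seen. The median over members in spleen was 0.11, with 76 of 86 positive, and it was -0.01 without null replicate 3, the library whose share was 5.53%. Rps4l, low in old mice, was also low in the null mice, at 127 to 170 in VAT (wild type 86.1 to 186) and 51.8 to 121 in spleen (wild type 27.9 to 123).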

How the data were processed

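The authors deposited 3 tables of normalised gene read counts, a signal per gene and library scaled by size factors, per the values and the submitters' processing notes, which name CASAVA 1.8.2, TopHat, Partek and DESeq2 with the mm10 build. Which tool did what, the counting rule and the treatment of reads with several matches are not given in the sources used here. The libraries were strand-specific, per the labels' protocols. Values were whole multiples of 1 step per library, leaving out entries at 1, which stand for 0 reads (at least 99.8% whole within 0.05 read), and whole reads were recovered from it. A count of 3 reads, the most a count of 0 allows, is worth 2.33 to 3.85 normalised counts, which covers counting error only. Replicate libraries of a group differed beyond counting error, with a chi-square per degree of freedom of at least 33.4.

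Genes with a mean of at least 10 were tested on log2 of value plus 1 with limma 3.58.1 with a trend (R 4.3.3), all groups of a table sharing 1 spread, two-sided, with Benjamini-Hochberg adjustment over all genes tested and a call under 0.05. edgeR 4.0.16 and DESeq2 1.42.0 on recovered reads, other scalings, filters, pseudocounts and left-out libraries were alternatives, and the fit was tested on simulated data. Results on a few genes are not reported here. The tables were normalised separately, so levels set across them are not compared. The members, the lists of other translation genes and the cell type markers were chosen with earlier results of these data known. Genes were named as up to 8 falls and 8 rises per comparison among called members with groups apart, a fixed list of stalk, reference, Mdm2-binding and paired members, and the 3 with the highest and the 3 with the lowest SD. Of other translation genes up to 4 of a list were named. Positions, transcripts and shared 50-base stretches came from GENCODE M21 and start sequences from RefSeq GRCm38.p6, which had 65 of the 86 members.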

Additional observations from a re-analysis of the deposited data

Results flagged for a closer look

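In groups of 4 libraries a value was singled out where its gap to the nearest library took up most of the range of its group (Dixon's critical value for 4 libraries), which chance gives in about 1 in 20 groups, and 5 of the 106 sets of values examined met this. Rpl5 in 24-month wild-type VAT was lowest in replicate 4 at 7872, with the others at 8633 to 8744. Rpl39l in the same group was highest in replicate 2 at 5.10, with the others at 1 or a little above, which is a matter of a few reads. In Nlrp3-/- VAT, Rps27rt was lowest in replicate 1 at 3850 (others 4424 to 4537), Rplp2 highest in replicate 3 at 3010 (others 2724 to 2759) and Rpl22 lowest in replicate 3 at 3479 (others 3776 to 3810). None of these libraries stood apart in the summed share of the ribosomal protein genes by the same rule. The libraries that do stand out in most members, 3-month VAT replicate 3 and Nlrp3-/- spleen replicate 3, are in groups of 3 libraries, which the rule does not examine.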

How the results depend on the processing

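The number of members that fell with age in VAT, 12, became 6 with edgeR, 24 with DESeq2, 24 in the VAT table, 7 with the 2 age groups alone and 0 to 21 when 1 library was left out, with no member higher under any of these. Over all genes the number called lower moved too, from 434 to 377, 613, 648, 567 and 140 to 485 in the same order. All 12 were among those called with DESeq2 and in the VAT table, and 6 of the 12 with edgeR and with the groups alone. Of the 9 called members followed there, 0 were called under every alternative. Rps25 and Rps27l lost the call only without 3-month replicate 3. In spleen the 1 call became 2 with a pseudocount of 10, 3 with DESeq2, 3 with quantile normalisation, 0 with the groups alone, 0 in the spleen table and 0 to 1 without 1 library. Over all genes the spleen calls were 850, and 933, 1429, 768, 546 and 650 under the first 5 of these alternatives. At 24 months the 42 tissue calls became 68 with quantile normalisation and 30 to 45 without 1 library (6726, 7039 and 5991 to 6403 over all genes). At 3 months the 16 became 31, and 10 to 16 without 1 VAT library (5745, 5593 and 4943 to 5025 over all genes). Quantile normalisation also gave 6 interaction calls, all lower, with 207 lower over all genes against 188 in the main fit. It turned Rpl10 to -0.10 (adjusted p = 0.553) and Rplp1 to -0.49 (adjusted p = 0.00767) at 24 months. Of the called members followed, 11 of 16 at 24 months and 7 of 11 at 3 months kept the call under every alternative run. The causes were not tested. The genotype counts stayed at 0 under every alternative run. With the 100 highest other genes left out of the total, the share became 5.06% and 3.997% in young and old VAT, 6.05% and 6.31% in young and old spleen, and 4.20% and 6.69% in null VAT and spleen, against 3.20%, 2.55%, 4.32%, 4.65%, 2.69% and 4.75%. Leaving out 1 library gave shares of 3.02% to 3.32%, 2.51% to 2.58%, 3.90% to 4.75%, 4.54% to 4.74%, 2.64% to 2.73% and 4.35% to 4.98% in the same order. A group left with 1 library was assumed to vary like the others.

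Replicate numbers are shared between groups but no label ties them. Same-numbered libraries had correlations of their deviations of at most 0.08 in the wild-type table and, between wild-type and null VAT, from -0.15 to 0.24, with 2 of 4 libraries correlating best with their own number. Between those 2 groups, libraries with unlike numbers had correlations from -0.29 to 0.16. With so few libraries in a group, these values cannot decide whether the numbers pair the libraries. With the replicate number as a block, 7 members were called with age in VAT, 0 with age in spleen, 48 by tissue at 24 months and 17 at 3 months. Over all genes the calls were then 683, 578, 6796 and 5550. Depth limits Rpl3l in VAT and Rpl39l, which lie near the 3-read floor.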
